A study of Rattus norvegicus with 54 samples.

Results

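Cytosolic ribosomal proteins are the protein parts of the ribosomes that translate mRNAs made in the nucleus, and 80 of the 9998 gene symbols measured in these rat hearts encode one of them. The genes were chosen by symbol alone: names made of Rpl or Rps and a number, the stalk genes Rplp0, Rplp1 and Rplp2, Rpsa, and the paralogs Rpl3l, Rpl22l1, Rps27l and Rps4y2. Kinases named after Rps6 and the binding protein named after Rps19 were left out. The large subunit accounts for 48 of the genes and the small subunit for 32. Rpl7l1 and Rps9 were not analysed here. For 15 of the genes the table held another 25 rows with the same values under a numbered form of the symbol, so each symbol was counted once.

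The hearts came from 54 male wildtype Wistar rats, 18 in each of 3 groups, which entered the protocol at an age of 7 to 8 weeks and were housed singly under 12 h of light and 12 h of dark for its 5 weeks. Control (C) rats did no work and had food and water at all times. Shift worker (W) rats spent their working hours, in the daytime rest phase, awake in a slowly rotating drum with food and water at hand. WRF rats worked in the same way but had no food while working, and the labels give their feeding time as the night. Hearts were taken at ZT1, 5, 9, 13, 17 and 21 (hours after lights on), from 3 rats per group and time. According to the study, collection fell on a Saturday, a rest day on which every group could eat freely. Atria and ventricles were crushed together for polyA RNA sequencing. Levels are in fpkm, fragments scaled to transcript length and to the mapped fragments of the library, so they can be compared between genes. The question of the study was how work during the rest phase, with or without food during work, changes gene expression in the heart.

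A ribosome joins a small subunit, which reads the mRNA, to a large subunit, which forms the peptide bonds. Most mRNAs of ribosomal proteins begin with a run of pyrimidines, the 5′ terminal oligopyrimidine or TOP motif, through which the mTORC1 kinase pathway controls their translation together. A few subunits have paralogs, among them Rpl3l, which takes the place of Rpl3 in the ribosomes of heart and skeletal muscle.

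The start of each gene is shown because the TOP motif lies there. RefSeq starts in the GRCr8 build were found for 65 of the 80 genes. Each window covers 10 bases before the annotated start and 20 from it on, read on the strand of the gene, and capitals mark the longest run of C and T. Rps23 had the longest run of all, and Rpl27a the longest in the large subunit. Rpl22 with Rpl22l1, Rps27 with Rps27l and Rpl3 with Rpl3l are pairs of a common subunit and its paralog.
Rps23: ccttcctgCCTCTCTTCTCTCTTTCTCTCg
Rpl27a: cttggtgggCTCCTCCCTCTTTCTTTTCTg
Rpl10: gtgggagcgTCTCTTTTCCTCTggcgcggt
Rpl22: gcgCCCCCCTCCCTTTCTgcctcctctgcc
Rpl22l1: gtggatatccggTTCCgagttgcgcagcgc
Rps27: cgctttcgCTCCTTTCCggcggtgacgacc
Rps27l: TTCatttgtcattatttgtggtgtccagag
Rpl3: gcctgctcgaTCTCTatcggcggcgtgtgg
Rpl3l: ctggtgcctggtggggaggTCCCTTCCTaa

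These windows lie at chr2:23814507-23814536 (plus strand) for Rps23, chr1:172974563-172974592 (plus) for Rpl27a, chrX:157205840-157205869 (plus) for Rpl10, chr5:168117951-168117980 (plus) for Rpl22, chr2:113683186-113683215 (plus) for Rpl22l1, chr2:177964587-177964616 (minus) for Rps27, chr8:76443648-76443677 (plus) for Rps27l, chr7:113507971-113508000 (minus) for Rpl3 and chr10:14258436-14258465 (plus) for Rpl3l. The fpkm were made on the older build rn6, so these positions do not apply to it. A run of at least 8 C or T bases was found in 40 of the 65 windows (61.5%), in 25 of 40 for the large subunit (62.5%) and in 15 of 25 for the small (60%). Among all 27457 genes with a start in the same table, 10.6% held such a run, and of the 7756 among them that were also measured in the heart, 9.88% did. The median longest run was 9 bases in the ribosomal protein genes and 4 in all genes. Rps27l, with 3 bases, and Rpl22l1, with 4, had short runs where Rps27 had 9 and Rpl22 had 15, whereas Rpl3l had 9 bases starting 9 bases past its annotated start and Rpl3 had 5. Annotated starts can lie some bases away from the start used in the heart, and a window without a run says only that these letters are not in it.

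The files hold no read counts, so no depth per library was computed from them. The summed fpkm of all genes ranged from 373115 in C25 to 749554 in WRF44. Some libraries stood apart in their cell type markers. WRF62 had 106 fpkm of the T cell gene Cd3e (WRF median 1.61), WRF51 had 1419 fpkm of the lung gene Ager (median 3.65), and W21 had 1027 fpkm of the liver gene Alb (W median 9.01). Ckm, the creatine kinase of muscle, was at 31.5 fpkm in WRF51 and 170 in WRF62, against a WRF median of 1633. C27 and W17 had 20.05 and 41.4 fpkm of the ventricular light chain Myl2, against medians of 2860 in C and 2903 in W, and 16085 and 20489 fpkm of the atrial light chain Myl7, against 16.5 and 14.1. Over all rats Myl7 ran from 2.29 fpkm in C20 to 23938 in WRF44, where Myl2 was at 1354, so the atrial signal differed widely between libraries. The 8 cardiomyocyte markers were above 0 in every rat, and their sum ran from 16549 to 39297 fpkm in C, from 18698 to 33753 in W and from 562 to 36572 in WRF.

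Ribosomal protein genes were among the most abundant mRNAs of the heart. In C rats the median gene of the set was at 496 fpkm, against 6.73 for all genes, and 73 of the 80 exceeded 100 fpkm. Large-subunit genes had a median level of 394 fpkm and small-subunit genes 597 in C rats. Rps29, a zinc-binding protein of the small subunit, was the highest at 2340 fpkm, and Rpl41, which encodes the smallest protein of the ribosome, led the large subunit at 1592. The lowest was the paralog Rps4y2 at 9.23 fpkm. Apart from the paralogs and Rpl37a, which is described with its own copy below, Rpl9 and Rpl7a were low, at 46.7 and 53.6 fpkm, and both had numbered copies in the table.

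Most ribosomal protein genes rose in WRF rats. Compared with C rats, 71 of the 80 were called higher in WRF rats and 0 lower, where 8.13% of all rows were called higher and 0.721% lower (Kruskal-Wallis test over the 3 groups with Benjamini-Hochberg adjustment over all 10257 rows, q of at most 0.05, followed by a 2-sided Mann-Whitney test). The large subunit gave 43 calls of 48 and the small subunit 28 of 32. The 71 called genes had log2 differences from 0.34 to 0.64 (SE 0.077 to 0.144, limma on log2(fpkm + 1), n = 18 per group), and their ratios of medians ran from 1.18 to 1.51. Of the 80 differences 79 were positive (64.1% over all rows), and 76 genes had an unadjusted Mann-Whitney p under 0.05 (26.3%). The median log2 difference was 0.47 over the large subunit and 0.48 over the small subunit, and 0.08 over all rows. limma with adjustment over all rows called 76 of the 80 higher, where it called 11.3% of all rows higher.

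**Figure D1:**
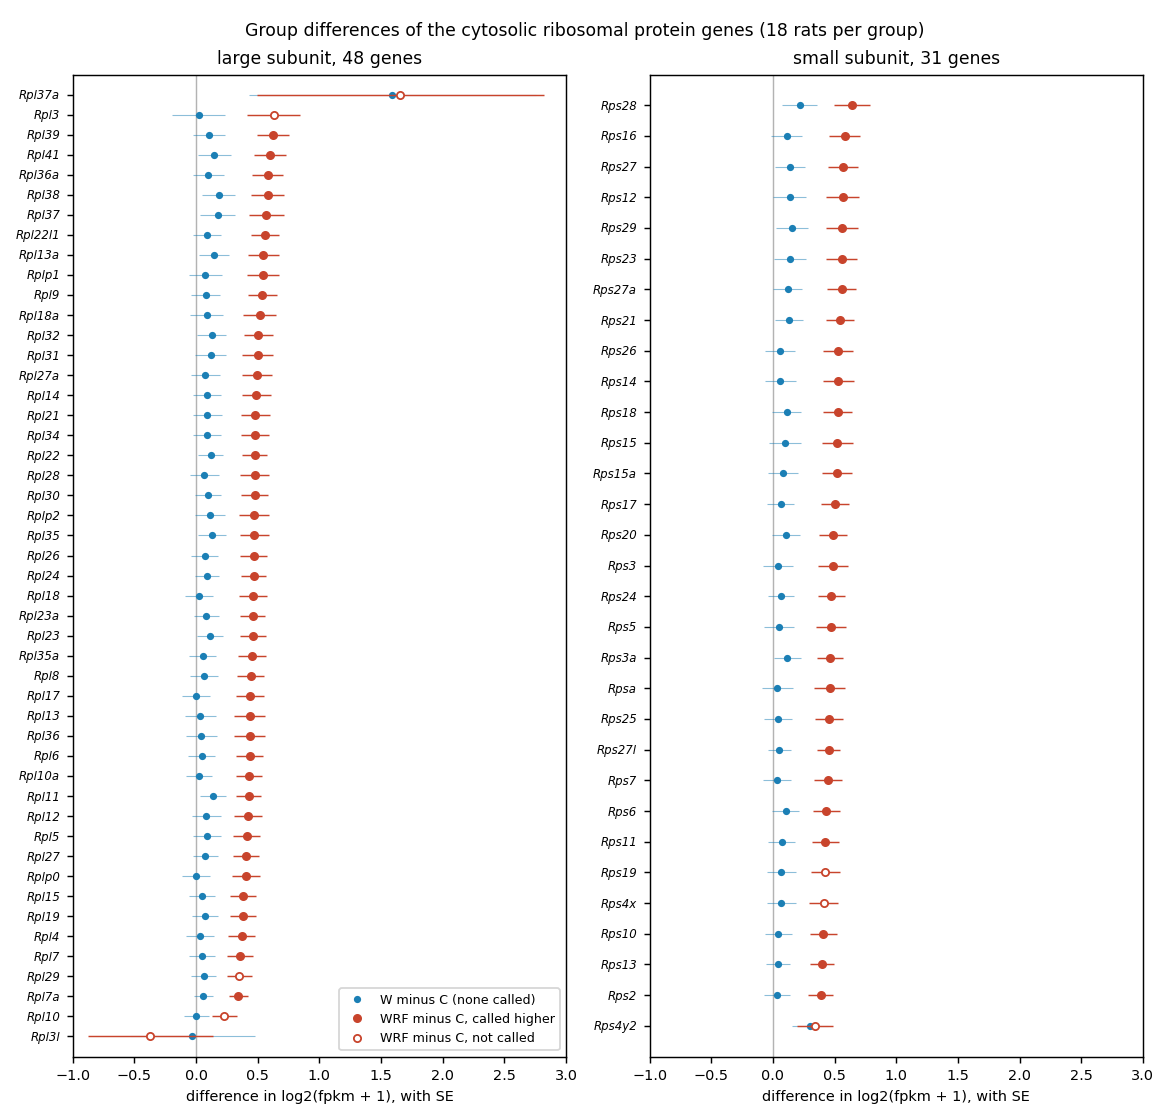
Difference in log2(fpkm + 1) of 79 ribosomal protein genes between WRF and C rats (red) and between W and C rats (blue), with standard errors, for the large (left) and small (right) subunit, 18 rats per group. Filled red points are the 71 genes called higher in WRF rats, open red points genes not called, and the called genes lie between 0.34 and 0.64.

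The summed level of the 80 genes shows the same shift rat by rat. It ran from 26112 fpkm in C25 to 57396 in C38 with a median of 41639 in C rats, from 32877 to 59604 with a median of 46962 in W rats, and from 41373 in WRF3 to 121743 in WRF62 with a median of 54078 in WRF rats. The 3 groups overlapped, and WRF62 and WRF51 (92754 fpkm) lay above all other rats. In 9 of the 18 WRF rats more than 30 of the genes were above every C rat, and in the other 9 at most 5 were. Among W rats, 39 were above every C rat in W17 and 22 in W11, and in 15 of the 18 at most 5 were. The same count was not made over all genes, and the summed fpkm of all genes differed between libraries. As a share of the fpkm of all genes, the set took 6.91 to 10.8% in C rats (median 8.47%), 6.16 to 11.1% in W rats (8.89%) and 8.24 to 19.1% in WRF rats (9.44%), with 14.4% in WRF51. Without WRF51 and WRF62 the highest WRF share was 11.7%. In these bulk hearts more cells of a type and more RNA per cell cannot be told apart.

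**Figure D2:**
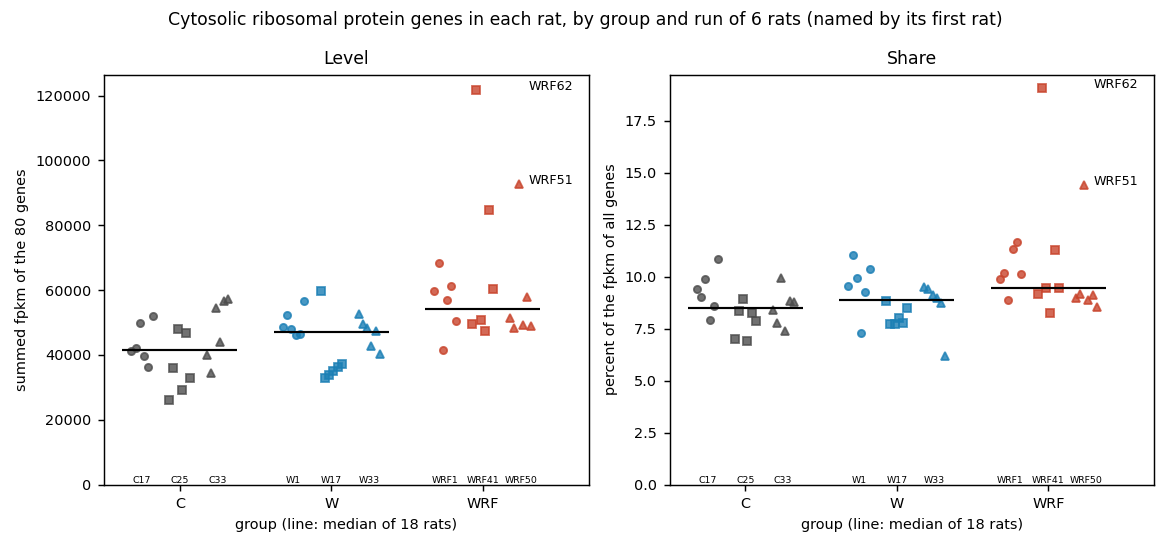
Summed fpkm of the 80 ribosomal protein genes (left) and their percent of the fpkm of all genes (right) in each rat, by group, with symbols for the 3 runs of 6 rats in each group and a line at the group median. The median sum is 41639 in C, 46962 in W and 54078 in the WRF group, and WRF62 and WRF51 lie above the rest.

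The calls depended on the scale and on a few libraries. When every rat was scaled to the same summed fpkm, 0 of the 80 genes were called by the rank tests (56 had an unadjusted Mann-Whitney p under 0.05, and limma called 17), and their median log2 difference was 0.24, with −0.12 over all genes. Median-of-ratios scaling left 32 calls by the rank tests and 74 by limma. Without WRF51, WRF62 and W21 the rank tests called 29 and limma 74, with a median log2 difference of 0.36. Each group was numbered in 3 runs of 6 rats, 1 per time: without WRF41 to WRF46 with WRF62, or without WRF50 to WRF55, the rank tests called 0 genes of the set and 0 of all genes (71 and 75 of the set had an unadjusted p under 0.05, and limma called 44 and 69). Without C17 to C22 they called 43 and limma 62. Without C25 to C30, the C rats with the lowest levels, they called 50 and limma 5. The sign of the median log2 difference was positive in all of these. In either direction limma called 1326 of all 10257 rows with values as deposited, 482 scaled to the same sum and 1117 with median-of-ratios scaling. It called 1113 rows without WRF51, WRF62 and W21, 368 without WRF41 to WRF46 with WRF62 and 428 without WRF50 to WRF55. Without C17 to C22 it called 344 rows, and without C25 to C30 112. The other rank-test and unadjusted counts are given without their share of all rows.

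**Figure D3:**
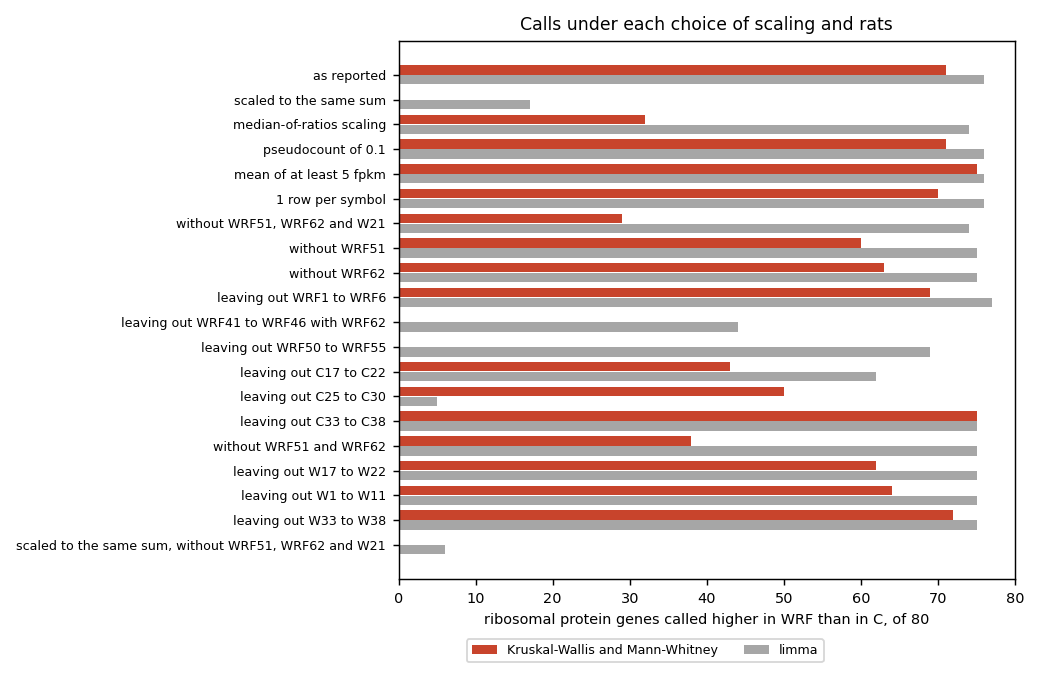
Number of the 80 ribosomal protein genes called higher in WRF than in C rats under each choice of scaling and of rats, by the Kruskal-Wallis and Mann-Whitney tests (red) and by limma (grey). The rank tests range from 0 to 75 calls and limma from 5 to 77.

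Of all cell type markers 1 passed the test between WRF and C rats, and the median summed levels of most lists were higher in WRF than in C rats. The 4 atrial markers summed to a median of 138 fpkm in C, 317 in W and 1154 in the WRF group (lowest and highest rat 48.3 and 55788 in C, 45.2 and 62455 in W, 60.9 and 54998 in WRF), and 0 of the 4 passed the test. Of the 7 fibroblast markers 1 was called higher in WRF rats, Postn (periostin, a matrix protein of activated fibroblasts), and their sum ran from 418 to 2177 fpkm in C (median 597), from 436 to 988 in W (670) and from 563 to 1389 in WRF (827). The 6 macrophage markers summed to 34.4 to 161 fpkm in C, 33.3 to 111 in W and 58.0 to 464 in the WRF group, and the 5 T cell markers to 5.80 to 22.3, 6.02 to 23.3 and 9.38 to 597. No macrophage or T cell marker passed the test, and none of these 22 markers was at 0 in any rat. The median sum over rats also went from 18560 fpkm in C to 25392 in WRF rats for 3 erythroid markers, from 26508 to 29223 for the cardiomyocyte markers, from 1021 to 1297 for 2 adipocyte markers, from 32.8 to 48.3 for 4 hepatocyte markers, from 26.3 to 34.2 for 2 neutrophil markers, from 0.550 to 1.02 for 1 B cell marker and from 3.54 to 3.65 for 1 lung marker. It was lower in WRF rats for 5 endothelial markers (169 and 152) and for 4 of smooth muscle and pericytes (177 and 149). The median log2 difference between WRF and C (limma) was −0.38 over the cardiomyocyte markers, opposite in sign to their sum. It was 0.07 over those of smooth muscle and pericytes, also opposite to their sum, and −0.14 over the endothelial markers. For the other cell type lists it was positive. Of all these, 2 hepatocyte markers and 1 adipocyte marker were at 0 in some rat. The part of these cell types in the rise of the ribosomal protein genes was not tested.

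The stalk of the large subunit recruits elongation factors and is built from Rplp0, Rplp1 and Rplp2. Rplp0 ran from 388 to 863 fpkm in C rats (median 608), from 494 to 846 in W (622) and from 489 to 1826 in the WRF group (773). Rplp1 ran from 725 to 1934 in C (1227), from 874 to 1645 in W (1312) and from 1077 to 3872 in WRF (1582). Rplp2 ran from 250 to 738 in C (404), from 337 to 597 in W (481) and from 351 to 1058 in WRF (546). The groups overlapped for each, WRF3 was the lowest WRF rat and WRF62 the highest, and 16, 17 and 17 of the 18 WRF rats lay above the C median. All 3 were called higher in WRF than in C rats, by 0.40 ± 0.11, 0.54 ± 0.13 and 0.47 ± 0.12 (log2 difference ± SE, q = 0.0293, 0.0163 and 0.0280).

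Rpl5 and Rpl11 bind the 5S ribosomal RNA and, when free of the ribosome, hold back the p53 regulator Mdm2. Rpl5 ran from 249 to 472 fpkm in C (median 362), from 312 to 548 in W (384) and from 348 to 1248 in the WRF group (442), with a log2 difference between WRF and C of 0.41 ± 0.11 (q = 0.0319). Rpl11 ran from 181 to 395 in C (310), from 253 to 439 in W (346) and from 290 to 874 in the WRF group (373), with a difference of 0.43 ± 0.10 (q = 0.0303). Both were called higher, and 17 of 18 WRF rats exceeded the C median for each.

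In the small subunit, Rps6 is the protein phosphorylated by S6 kinase. It ran from 185 to 345 fpkm in C (median 254), from 208 to 368 in W (277) and from 253 to 912 in the WRF group (314), and was called higher by 0.43 ± 0.11 (q = 0.0200). Rpsa, which is also known as a laminin receptor, ran from 317 to 754 in C (516), from 410 to 796 in W (524) and from 399 to 1678 in the WRF group (667), and was called higher by 0.46 ± 0.13 (q = 0.0315). Rps2 and Rps13 had the smallest differences among the called genes of this subunit. Rps2 ran from 384 to 909.5 fpkm in C (median 633), from 516 to 819 in W (678) and from 539 to 1689 in the WRF group (799.8), a difference of 0.39 ± 0.10 (q = 0.0169). Rps13 ran from 299 to 577 in C (428), from 326 to 541 in W (468) and from 419 to 1147 in the WRF group (552), a difference of 0.40 ± 0.10 (q = 0.0169). In all 4 genes the groups overlapped.

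Rps28, Rpl39 and Rpl41 had the largest differences among the called genes. Rps28 ran from 402 to 1215 fpkm in C rats (median 749), from 559 to 1337 in W (936) and from 789 to 2168 in WRF (1124), so that all 18 WRF rats lay above the C median, and its difference was 0.64 ± 0.14 (q = 0.0347). Rpl39 ran from 134 to 290 in C (212), from 156 to 375 in W (225) and from 209 to 682 in WRF (306), with a difference of 0.62 ± 0.13 (q = 0.0163). Rpl41 ran from 869 to 2411 in C (1592), from 1188 to 2597 in W (1778) and from 1651 to 4292 in WRF (2157), with a difference of 0.60 ± 0.13 (q = 0.0163). For these 3 genes the groups overlapped, and 17 or 18 of the WRF rats lay above the C median.

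Rps16, Rps27 and Rps29 were also among the small-subunit genes with large differences. Rps16 ran from 248 to 627 fpkm in C (median 436), from 348 to 720.4 in W (470.005) and from 411 to 1528 in the WRF group (587), and rose by 0.58 ± 0.13 (q = 0.0114). Rps27 ran from 869.7 to 1660.4 in C (1186), from 938 to 1758 in W (1337) and from 1316 to 4095 in the WRF group (1674), and rose by 0.57 ± 0.12 (q = 0.0110). Rps29 ran from 1368 to 3714 in C (2340), from 1772 to 3713 in W (2784) and from 2612 to 5719 in the WRF group (3331), and rose by 0.56 ± 0.13 (q = 0.0229). All 18 WRF rats lay above the C median for Rps27 and Rps29, and 17 for Rps16. At the other end, Rpl7a ran from 38.5 to 65.3 fpkm in C (53.6), from 43.9 to 67.5 in W (56.7) and from 53.03 to 120.5 in the WRF group (64.7), and rose by 0.34 ± 0.08 (q = 0.0176). Rpl9, also low, ran from 30.6 to 74.1 in C (46.7), from 31.6 to 73.9 in W (52.9) and from 49.2 to 128 in the WRF group (66.6), and rose by 0.54 ± 0.12 (q = 0.0161).

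Among the 9 genes not called were Rpl3, Rpl3l, Rpl10, Rpl29, Rpl37a, Rps4x, Rps4y2 and Rps19. For Rps19, Rps4x and Rpl29 the adjusted p lay just past the limit, with q = 0.0515, 0.0526 and 0.0529 and log2 differences of 0.43 ± 0.12, 0.41 ± 0.12 and 0.35 ± 0.10, and limma called all 3 higher. Rps19, in which mutations cause Diamond-Blackfan anemia in humans, ran from 183 to 398 fpkm in C (median 296), from 232 to 408 in W (298) and from 255 to 919 in the WRF group (347). Rps4x ran from 414 to 901 in C (600.5), from 484 to 1041 in W (629) and from 524 to 1684 in the WRF group (763). Rpl29 ran from 280.02 to 555 in C (410.3), from 339.9 to 588 in W (445) and from 359 to 993 in the WRF group (495). The groups overlapped for all 3, and 16, 16 and 17 of the 18 WRF rats lay above the C median. Rpl10, which completes the large subunit near the peptidyl transferase center, had the smallest positive difference, 0.23 ± 0.10 (q = 0.209). It ran from 451 to 915 fpkm in C (median 621), from 462 to 1008 in W (615) and from 526 to 1208 in the WRF group (703). Its difference was −0.00654 when every rat was scaled to the same summed fpkm.

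With all rats, no gene of the set was called between W and C. In W rats 0 of the 80 genes were called against C (background 0.234% of rows higher and 0.195% lower). limma called 0 as well, and 1 gene, Rps4y2, had an unadjusted Mann-Whitney p under 0.05 (2.64% of all rows). The median log2 difference was 0.08, and 78 of the 80 differences were positive, where 46% of all rows were. Without W17 to W22 the rank tests called 19 genes higher in W than in C rats, and without C33 to C38 they called 8. The background above is that of all rats, and the share over all rows is not given for these counts. Against W rats, 71 genes were called higher in WRF rats (background 8.26%) and 0 lower (0.692%), 43 in the large and 28 in the small subunit, with a median log2 difference of 0.40. By limma 74 were higher (12.4% of all rows), 77 had an unadjusted Mann-Whitney p under 0.05 (33.2%), and 79 differences were positive (65.7%). The comparisons of WRF with C and with W share the WRF rats.

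To see which genes departed from the shared change, the median log2 level of the 80 genes in a rat was subtracted from each of its genes. On this scale most of the set moved as a unit: the standard deviation over the 54 rats had a median of 0.112 and was under 0.25 for 75 of the 80 genes. The others were Rpl37 (0.265), Rpl3 (0.461), Rps4y2 (0.462), Rpl3l (1.78) and Rpl37a (3.54). Between WRF and C rats 11 genes departed from the median gene (limma, adjusted over all rows). Because 70.6% of all rows departed on this scale, nearly all downwards, the adjustment let through an unadjusted p of up to 0.0319, and 11 genes had one under 0.05.

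Rpl10 was the gene that lagged, by 0.21 ± 0.06 on the log2 scale (limma, adjusted p = 0.00288), and it also lagged behind the set between WRF and W rats (by 0.15, adjusted p = 0.0360), where it was the 1 gene to depart, against 46.8% of all rows. The 10 that rose more than the median gene did so by 0.11 to 0.20. They were Rps28, Rpl39, Rpl41, Rps16, Rpl36a, Rps27, Rps12, Rps23, Rps27a and Rpl13a, 4 of the large subunit and 6 of the small. Rps27a is a fusion of ubiquitin with a ribosomal protein, and its product is cut into both. All 11 were also called without WRF51, WRF62 and W21, but fewer when a run of rats was left out. Without WRF1 to WRF6, 4 of the 11 were called again (Rpl10, Rpl41, Rps16 and Rps27a). The number was 8 without WRF41 to WRF46 with WRF62 and 10 without WRF50 to WRF55. It was 8 without C17 to C22 and 9 without C33 to C38, and 0 genes were called without C25 to C30. Between W and C rats 0 genes departed, as did 0% of all rows, and 0 had an unadjusted p under 0.05 (limma).

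The balance of the subunits varied little between rats. The ratio of summed fpkm, large over small, ran from 1.09 to 1.203 in C (median 1.14), from 1.08 to 1.19 in W (1.14) and from 1.08 to 1.17 in the WRF group (1.12). Since a second row, named as a copy of Rpl37a, was high where Rpl37a was low, the ratio was also taken with that row added. It then ran from 1.13 to 1.22 in C (median 1.18), from 1.13 to 1.1997 in W (1.17) and from 1.11 to 1.21 in WRF rats (1.16), so that the groups overlapped. WRF62 had the lowest ratio on both scales.

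Rpl3l and Rpl3 swung more widely between rats than the other 3 paralog pairs. The muscle paralog had the higher median in C and W rats but not in WRF rats, with a median of 166 fpkm for Rpl3l against 132 for Rpl3 in C rats, 162 against 127 in W and 165 against 191 in WRF rats. Rpl3l made up a median of 60.4% of the sum of both in C (0.571 to 69.3%), 54.8% in W (0.537 to 66.5%) and 48.4% in WRF rats (0.156 to 63.7%). In 4 rats Rpl3l was almost absent: C27 (2.25 fpkm), W17 (1.95), WRF51 (3.05) and WRF62 (1.40). In the same 4 rats Rpl3 was at 392, 361, 679 and 900 fpkm, and the highest of the other rats were WRF44 at 493 and C29 at 298. Myl2 was at 20.05, 41.4, 49.98 and 4.84 fpkm in these hearts, the 4 lowest values of the series.

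Rpl3l was also compared with the ventricular light chain across the other rats. Since C27, W17, WRF51 and WRF62 lie apart in Rpl3l and Myl2, no r over all rats of a group is given for these genes. Without the pair of rats farthest from the median of Myl2 (C27 and C29, W17 and W7, WRF62 and WRF51), Pearson's r between the levels of Rpl3l and Myl2 as log2(fpkm + 1) was 0.927 in C, 0.617 in W and 0.867 in WRF, with n = 16 each. In the WRF group Spearman's rho was then 0.779, the permutation p was 5e-05 for r and 0.00075 for rho, and r was 0.769 without the next pair, WRF44 and WRF52. Rpl3 was higher where the atrial light chain Myl7 was higher, with r = 0.759 in C (rho 0.678), 0.704 in W (rho 0.690) and 0.540 in WRF (rho 0.748), n = 18 each. Those 18 rats include the ones that lie apart. The permutation p-values, adjusted over the 18 relations computed over all rats of a group, were 0.000694, 0.00100 and 0.0193 for r and 0.00498, 0.00488 and 0.00141 for rho (100000 resamples, 2-sided). Without the pair of rats farthest in Myl7, r was 0.593, 0.567 and 0.472, and without WRF51 and WRF62 it was 0.854 in WRF (rho 0.868). Levels in a rat share a library and its scale, and these relations were chosen after the values were seen.

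**Figure D4:**
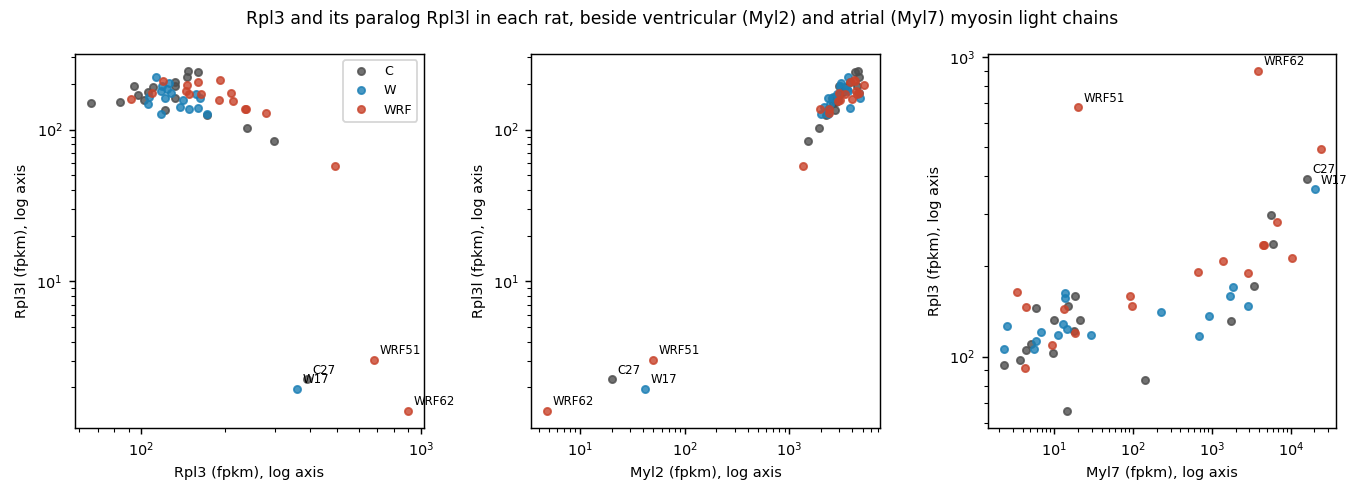
Rpl3l against Rpl3 (left), Rpl3l against the ventricular light chain Myl2 (middle) and Rpl3 against the atrial light chain Myl7 (right), in fpkm on log axes, 1 point per rat. C27, W17, WRF51 and WRF62 lie apart, with 1.40 to 3.05 fpkm of Rpl3l.

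Neither gene of this pair was called between WRF and C rats by the rank tests. Rpl3l ran from 2.25 to 245 fpkm in C, from 1.95 to 224 in W and from 1.40 to 214 in WRF. Rpl3 ran from 66.0 to 392 fpkm in C, from 106 to 361 in W and from 91.5 to 900 in the WRF group, with a log2 difference between WRF and C of 0.63 ± 0.22 (q = 0.0781), although limma called it (adjusted p = 0.0454). For Rpl3l the difference was −0.37 ± 0.51 (q = 0.919), and it was 0.26 ± 0.40 without WRF51, WRF62 and W21. Relative to the median gene, Rpl3l differed by −0.81 ± 0.57 between WRF and C rats (limma, adjusted p = 0.191), so that a departure from the set was not shown.

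Of the other paralogs, Rpl22l1 and Rps27l were called higher in WRF than in C rats and Rps4y2 was not. Rpl22l1, the paralog of the RNA-binding protein Rpl22, ran from 64.8 to 146 fpkm in C (median 101), from 67.9 to 149 in W (110) and from 85.9 to 297 in the WRF group (149), and was called higher by 0.56 ± 0.11 (q = 0.0132). Rpl22 ran from 203 to 419 in C (300), from 250 to 430 in W (345) and from 329 to 794 in the WRF group (397), and was called higher by 0.48 ± 0.10 (q = 0.0223). The paralog made up 20.2 to 32.1% of both in C (median 24.2%), 21.4 to 27.9% in W (24.5%) and 20.2 to 31.4% in WRF rats (27.1%), and relative to the median gene it differed by 0.12 ± 0.08 (limma, adjusted p = 0.168).

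Rps27l, known as a p53 target and a close copy of Rps27, ran from 24.4 to 44.9 fpkm in C (median 34.1), from 27.5 to 44.7 in W (35.4) and from 31.8 to 91.4 in WRF rats (43.1), where WRF51 was the highest. It was called higher in WRF than in C rats by 0.45 ± 0.09 (q = 0.0125). Its share of both genes was 1.98 to 3.37% in C, 1.86 to 3.40% in W and 1.71 to 3.21% in the WRF group, with medians of 2.76, 2.60 and 2.58%. Rps4y2 ran from 4.83 to 14.01 fpkm in C (median 9.23), from 5.08 to 20.4 in W (13.04) and from 8.28 to 26.1 in the WRF group (10.98), with a difference of 0.34 ± 0.14 between WRF and C (q = 0.182) and of 0.30 ± 0.14 between W and C. It made up 0.543 to 4.04% of the sum with Rps4x over all rats. Reads that match both genes of a pair can be assigned to either gene. How many reads did so was not tested, so the uncertainty of these values is not known.

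Rpl37a had the widest spread of the set, and whether it shared reads with another row was not tested. It ran from 0.0335 to 1045 fpkm in C rats (median 30.9), from 0.863 to 1642 in W (359) and from 0.567 to 1950 in the WRF group (293), while the row Rpl37a.ps1, a copy named as a pseudogene, was high where Rpl37a was low. Rpl37a held 0.00239 to 97.3% of the sum of both rows in C, 0.0712 to 97.9% in W and 0.0461 to 98.3% in the WRF group. Its median share differed between the runs of rats, but the rats within a run could be far apart. The share was 61.9 to 98.3% in WRF1 to WRF6 (median 97.6%), 70.2 to 97.9% in W1 to W11 (85.6%) and 19.7 to 97.3% in C17 to C22 (66.4%). It was 0.0187 to 3.29% in C25 to C30 (0.238%), 0.0712 to 22.7% in W33 to W38 (2.56%) and 0.0461 to 17.1% in WRF41 to WRF46 with WRF62 (3.49%). The other runs spanned both, with 0.00239 to 41.9% in C33 to C38 (2.95%), 0.118 to 74.03% in W17 to W22 (31.9%) and 0.0496 to 72.2% in WRF50 to WRF55 (9.36%). Alone, Rpl37a differed by 1.66 ± 1.16 between WRF and C rats (q = 0.338).

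The sum of both rows varied less than either row. It ran from 585 to 1540 fpkm in C (median 1018), from 733 to 1693 in W (1075) and from 1073 to 2540 in the WRF group (1310). Its log2 difference between WRF and C was 0.59 ± 0.13 (limma, adjusted p = 0.00403), with q = 0.0175 in the Kruskal-Wallis test and an unadjusted Mann-Whitney p of 0.000258, so that with both rows added together Rpl37a too passed the test. This sum was taken after the values of both rows were seen.

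No gene of the set passed a test for time of day. At each time the median difference between WRF and C rats (3 rats per group) was positive. It ran from 0.17 at ZT21 and 0.18 at ZT9 to 0.59 at ZT1 and 0.96 at ZT5, the time of WRF62. Between 76 and 79 of the 80 differences were positive. The median log2 level of the set at ZT9 was 10.1 in WRF51, 9.23 in WRF41 and 8.93 in WRF3. In C rats it ran from 9.22 to 9.27 at that time, so the positive value at ZT9 leaned on WRF51. For W against C the median difference ran from −0.25 at ZT9 to 0.58 at ZT1. Of the 80 differences between W and C, 79 were positive at ZT1, 80 at ZT5 and 2 at ZT9. The share of positive differences over all rows was not computed at single times. In the light hours (ZT1, 5 and 9) the median difference between WRF and C was 0.56 and in the dark hours 0.39. The difference of these differences passed the adjusted test for 0 genes, as for 0% of all rows, with an unadjusted p under 0.05 for 0 of the 80 (0.76% of all rows upwards and 0.643% downwards, limma, smallest adjusted p 0.928, smallest unadjusted p 0.236), and its median was 0.18, with 0.08 over all rows. By harmonic regression with a period of 24 h, 0 of the 80 genes were rhythmic in C, W or WRF rats (background 0.848%, 0% and 0.039% of rows at q under 0.05), and 0 had an unadjusted p under 0.05 in any group (background 5.91%, 3.05% and 6.35%). The smallest p was 0.0702 in C, 0.0974 in W and 0.269 in the WRF group. The labels of 12 WRF rats give another time than their titles, and with those times the counts were 0 as well.

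Genes that work beside the ribosome were read from lists of known function, and their counts stand against 8.13% of all rows called higher in WRF than in C rats. Of 6 measured genes for fusion and ribosome-associated proteins, 5 were called higher in WRF than in C rats and 0 lower, with a median log2 difference of 0.36. Among them, Fau, which encodes Rps30 fused to a ubiquitin-like protein, rose by 0.52 ± 0.12 (q = 0.0181) and the scaffold Rack1 by 0.38 ± 0.12 (q = 0.0359). Of 17 other genes with TOP mRNAs, 6 were called higher, with a median of 0.29. Gas5, a noncoding host of small nucleolar RNAs, rose by 0.64 ± 0.14 (q = 0.0221) and the elongation factor Eef1b2 by 0.54 ± 0.11 (q = 0.0110), while Eef1a1 had a difference of 0.51 ± 0.19 (q = 0.0844). Of 35 initiation and elongation factors 9 were called higher (median 0.16), among them the helicase Eif4a1 by 0.35 ± 0.10 (q = 0.0140). Of 54 ribosome biogenesis genes 13 were called higher (median 0.18), among them the rRNA methyltransferase Fbl by 0.53 ± 0.13 (q = 0.0169) and the polymerase subunit Polr1d by 0.47 ± 0.12 (q = 0.0170). Of 29 genes of mTORC1 and S6 kinase signaling 3 were called higher, a share near that of all rows (median 0.07, with 0.08 over all rows), among them the Ragulator subunits Lamtor4 and Lamtor5 by 0.35 ± 0.09 and 0.31 ± 0.07 (q = 0.0205 and 0.0110). Of 14 genes of ribosome quality control and stress 0 were called, with a median of 0.04. No gene of these 6 lists was called lower in WRF than in C rats.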

How the data were processed

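The deposited values were FPKM made by the authors, who aligned directional polyA libraries to the rat build rn6 with TopHat2, keeping 1 alignment per read, and estimated expression with Cufflinks. Tool versions are not given in the sources used here. All 10257 rows meet the authors' filter, a level over 1 fpkm in no fewer than 18 of 54 rats. No column was left out, and the files give no counts, so no counting error could be computed. Values were used as deposited. Groups were compared with Kruskal-Wallis and 2-sided Mann-Whitney tests in scipy 1.17.1 (Python 3.11.15). To give each difference a size and an SE, log2(fpkm + 1) was fitted by limma 3.58.1 in R 4.3.3 with a variance trend, and limma also served as the other tool for calls. In the text q is the adjusted Kruskal-Wallis p unless limma is named. All adjustments across genes were over every row. The scripts were tested on simulated data in which genes varied independently, without the shared shifts of rats or runs seen here.

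Values were given in full, apart from the gene not named, for paralogs and their counterparts, stalk and 5S-binding proteins, Rps6, Rpsa, Rps19, members with extreme differences or levels, and members not called, and up to 3 genes were named per pathway list. One gene of the set is counted but not reported by name here. The members and lists were chosen with earlier results of these data known. The runs of 6 rats follow the numbers in the titles, which name no batch.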

Additional observations from a re-analysis of the deposited data

How the results depend on the processing

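The number of ribosomal protein genes called higher in WRF than in C rats by the rank tests, 71 as reported, was 0 with every rat scaled to the same summed fpkm and 32 with median-of-ratios scaling. It was 29 without WRF51, WRF62 and W21, 0 without WRF41 to WRF46 with WRF62, 0 without WRF50 to WRF55 and 43 without C17 to C22. Under the other planned choices it lay between 50 and 75. Of the alternatives chosen after seeing the data, leaving out WRF51 and WRF62 gave 38, and scaling to the same sum without WRF51, WRF62 and W21 gave 0, with a median log2 difference of 0.15 in the large and 0.15 in the small subunit. Relative to the median gene 0 genes were called without C25 to C30, and 4 of the 11 were called again without WRF1 to WRF6. Between W and C rats, 8 genes were called higher without C33 to C38 and 19 without W17 to W22, given without their share of all rows. The causes were not tested.

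The sign turned for a few genes with small or uncertain differences between WRF and C. For Rpl10 it was −0.00654 with scaling to the same sum and −0.0703 with that scaling without the 3 rats. For Rpl3l it was 0.26 without WRF51 and WRF62, with or without W21, and 0.0461 with the scaling as well. For Rpl37a it was −0.0459 without WRF1 to WRF6. Relative to the median gene, Rps4y2 was at 0.00083 without WRF51 and WRF62, with or without W21, at 0.0218 without WRF41 to WRF46 with WRF62, and at 0.0234 with the scaling without the 3 rats. Rps27l, relative to the median gene, was at −0.0045 without WRF51, −0.0330 without WRF1 to WRF6, −0.0328 without WRF50 to WRF55 and −0.0542 without C33 to C38.

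C and W rats share 12 numbers. Same-numbered rats deviated together in some pairs only (r over 0.1 in 6 of 12 pairs, lowest −0.0776, highest 0.570). As 1 pair alone correlated best with its own number, same-numbered rats were not taken as paired. In these 24 rats limma called 0 genes with the replicate block and 0 without it, with a median log2 difference between W and C of −0.07 in both.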
